A study of Mus musculus with 6 samples.

Results

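The genes described here run glucose from the cell surface to lactate, branch it into the pentose phosphate pathway, and sense or answer low oxygen. They are 32 mouse genes, chosen by name from 22966 genes in a raw count table. In the order of the pathway they comprise 3 membrane transporters, 9 genes of the upper part of glycolysis with its regulator, 6 of the lower steps, 3 that set the fate of pyruvate, 4 of the pentose phosphate pathway and 7 of the hypoxia response. RNA-seq libraries came from primary hepatic stellate cells, the vitamin A-storing cells of the liver that become collagen-secreting myofibroblasts after injury. The 3 libraries titled Cre were compared with the 3 titled flox. The study deletes butyrylcholinesterase (Bche, written Buche in the labels) in hepatocytes. The genotype entry is BucheHep for all 6 libraries, so the titles alone separate the groups, and every library carries the entry CCl4 treatment, carbon tetrachloride being a hepatotoxin used to scar the liver. The promoter that drives Cre, the ages of the mice, any pooling of animals and the CCl4 schedule do not stand in the labels, nor does any entry say whether a library is 1 animal. The p-values therefore measure the spread between these 6 libraries, which may be partly technical.

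Glycolysis splits glucose into pyruvate and returns ATP. Its first committed steps are set by the hexokinases and phosphofructokinases, of which cells carry several isoforms. Lactate dehydrogenase turns pyruvate into lactate, and pyruvate dehydrogenase kinase shuts pyruvate dehydrogenase, the mitochondrial enzyme that oxidises pyruvate. The pentose phosphate pathway instead oxidises glucose 6-phosphate to give NADPH and ribose. When oxygen is short, the prolyl hydroxylases EGLN1 and EGLN3 no longer mark HIF-1alpha for destruction, and the factor raises transcription of many glycolytic genes. That control acts on the HIF-1alpha protein, which RNA-seq does not measure. In culture or after injury, activated stellate cells are known to take up more glucose and release more lactate.

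The libraries held 37273142 to 39377787 counts in the Cre group and 38452088 to 41006722 in the flox group. Bche, the deleted gene of the study, was near the detection limit of these cells, with 15, 8 and 2 counts in the Cre libraries and 17, 6 and 21 counts in the flox libraries. The groups overlapped for Bche (log2 fold change -0.88 ± 0.80 SE, edgeR adjusted p = 0.467), and a deletion in hepatocytes is not tested by stellate cell RNA. The main axis of variation (principal component 1, 61.0% of the variance) placed the Cre libraries at 39.8 to 63.8, flox 1 and flox 2 at -64.3 and -89.3, and flox 3 apart from both at -6.61. Of 24 macrophage and Kupffer cell markers, 21 were lower and 1 was higher in Cre libraries, and their summed level was 3682 to 4420 CPM in Cre libraries and 10188 to 29961 CPM in flox libraries, flox 3 being the lowest of these. CPM stands for counts scaled to the TMM-adjusted library size. Over the 24 markers the log2 fold change ran from -5.78 to 0.83, with a median of -2.59. The lowest was that of Cd163, a resident macrophage receptor, at 0.56 to 1.95 CPM in Cre libraries and 13.1 to 126 CPM in flox libraries. Of 20 stellate and myofibroblast markers 5 were higher and 0 lower. The log2 fold change was positive for 15 of them and negative for 5, from -1.36 to 1.47, with a median of 0.63. Their mean log2 CPM was 5.13, 5.28 and 5.95 in Cre libraries and 5.52, 4.86 and 4.51 in flox libraries, so the groups overlapped. Lrat, the retinol esterase that marks resting stellate cells, was at 0.17 to 1.03 CPM in Cre and 0.12 to 2.49 CPM in flox libraries. Proliferation markers were higher for 16 of 17. Of the markers tested for other cells, 0 of 17 were called for hepatocytes, 1 of 15 was lower for endothelium and 1 of 4 was lower for neutrophils. Yet 14 of 17 hepatocyte markers had a negative log2 fold change, with a median of -0.84. Their mean log2 CPM was 2.96, 1.16 and 3.20 in Cre libraries and 2.43, 3.11 and 4.18 in flox libraries. The endothelial markers summed to 3280, 5848 and 3969 CPM in Cre libraries and 3260, 2620 and 6965 CPM in flox libraries. Of 11 mesothelial markers 1 was called, higher, yet all 11 had a positive log2 fold change, with a median of 1.45. Their mean log2 CPM was 5.20, 5.69 and 3.36 in Cre libraries and 3.82, 3.32 and 3.65 in flox libraries, high in Cre 1 and Cre 2 only. In bulk RNA, fewer cells of a type and less RNA per cell cannot be told apart, and the part of these differences in each result below was not tested.

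All 32 genes had enough counts to be tested. A gene was called changed when its edgeR quasi-likelihood p, adjusted by Benjamini-Hochberg over the 14795 genes tested, was below 0.05. By that rule 6 of 32 genes (18.8%) changed between Cre and flox libraries, against a background of 15.3% of all genes. Slc2a1, Slc16a1, Pfkl, Eno1 and Ldhb rose, which is 15.6% against a background of 6.35% higher, and Hk3 fell, which is 3.12% against 8.94% lower. The share called in either direction is thus near the background. The log2 fold change was positive for 24 of 32 genes (75.0%), against 51.0% of all genes tested, and the median was 0.37, against 0.01 over all genes tested. At an unadjusted p below 0.05 there were 17 genes, 13 with a positive and 4 with a negative fold change. These values rest on TMM scaling. With library totals instead, the median over all genes shifts by 0.16, and 57.0% of all calls are higher in Cre, against 41.5% with TMM factors. The 3 Cre values stood apart from the 3 flox values for 11 genes (34.4%), a share below the 39.6% of all genes. All Cre values were above all flox values for 10 of them (31.2%, background 19.6%), and below for Hk3 alone (3.12%, background 20.0%).

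**Figure D1:**
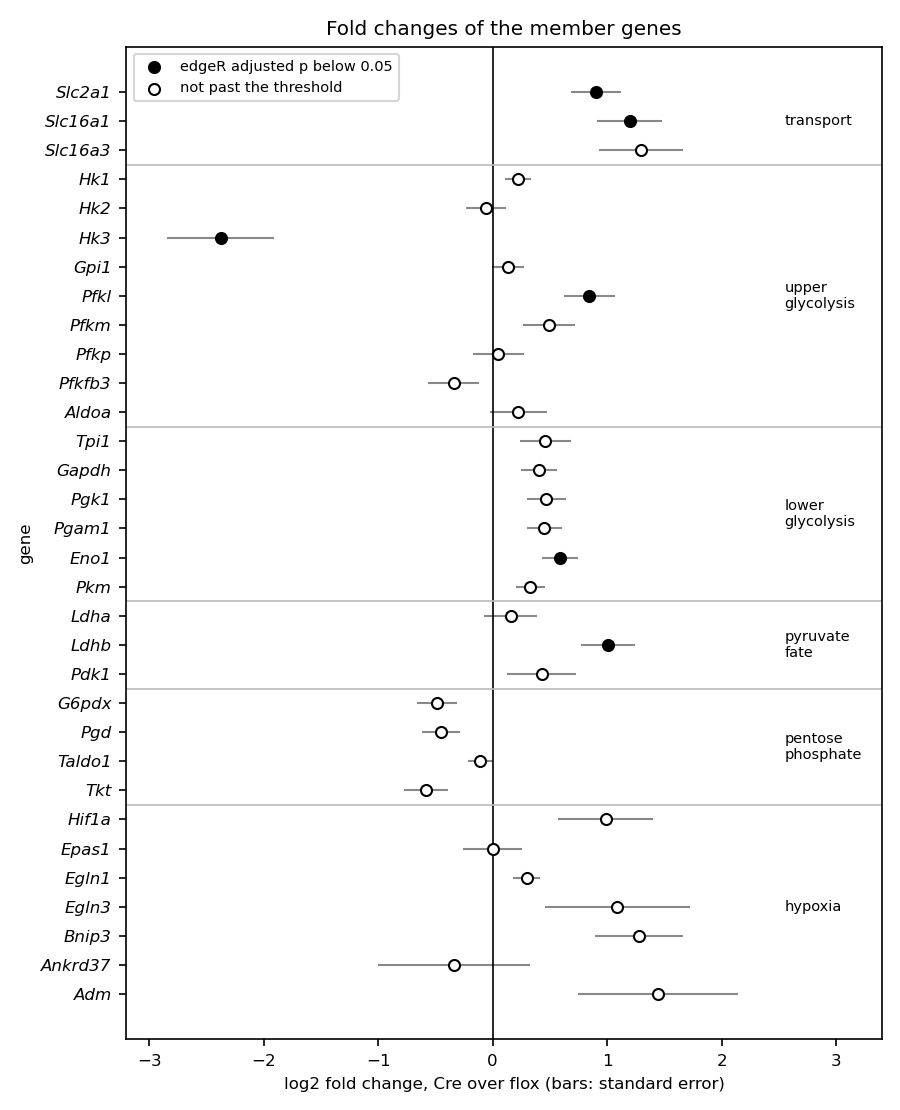
Log2 fold change of each of the 32 genes, Cre over flox, from edgeR, with its standard error as a bar, grouped by pathway step (filled points: adjusted p below 0.05; open points: not past the threshold; n = 3 libraries a group). The transporters lie between 0.90 and 1.30, the lower steps of glycolysis between 0.33 and 0.59 and the pentose phosphate genes between -0.58 and -0.11.

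The promoters of the 6 changed genes are printed because HIF factors bind the core letters ACGTG or GCGTG, and the letters can be seen in place in the 5 genes that rose and in Hk3, which fell. The windows are RefSeq's, on build GRCm38.p6, 250 bases before to 50 bases after the start, 5′ to 3′ on the gene's strand. Capitals mark ACGTG or GCGTG on either strand, the reverse being CACGT or CACGC; where CACGTG occurs, the 2 strands overlap and count as 2 matches. The windows are chr4:119108495-119108794 (+) for Slc2a1, chr3:104638414-104638713 (+) for Slc16a1, chr10:78009758-78010057 (-) for Pfkl, chr4:150236458-150236757 (+) for Eno1 (the first of 3 entries), chr6:142507908-142508207 (-) for Ldhb and chr13:55021336-55021635 (-) for Hk3.
Slc2a1: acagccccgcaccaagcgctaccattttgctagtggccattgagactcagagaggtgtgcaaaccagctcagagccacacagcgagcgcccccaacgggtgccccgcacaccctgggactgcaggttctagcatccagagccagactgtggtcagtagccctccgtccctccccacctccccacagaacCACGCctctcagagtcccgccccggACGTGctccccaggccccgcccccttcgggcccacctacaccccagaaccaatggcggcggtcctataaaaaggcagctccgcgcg
Slc16a1: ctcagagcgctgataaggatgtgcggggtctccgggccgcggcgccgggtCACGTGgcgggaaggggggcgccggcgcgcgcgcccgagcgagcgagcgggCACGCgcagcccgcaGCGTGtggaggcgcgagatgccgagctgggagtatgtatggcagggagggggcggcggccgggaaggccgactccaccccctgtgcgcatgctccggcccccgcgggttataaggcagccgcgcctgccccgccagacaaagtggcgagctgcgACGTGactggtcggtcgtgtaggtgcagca
Pfkl: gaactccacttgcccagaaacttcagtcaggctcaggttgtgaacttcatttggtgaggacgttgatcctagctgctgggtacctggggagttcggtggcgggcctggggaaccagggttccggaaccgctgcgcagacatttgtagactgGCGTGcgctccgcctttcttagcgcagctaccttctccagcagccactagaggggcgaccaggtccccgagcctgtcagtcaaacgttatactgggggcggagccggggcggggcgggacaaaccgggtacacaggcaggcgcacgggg
Eno1: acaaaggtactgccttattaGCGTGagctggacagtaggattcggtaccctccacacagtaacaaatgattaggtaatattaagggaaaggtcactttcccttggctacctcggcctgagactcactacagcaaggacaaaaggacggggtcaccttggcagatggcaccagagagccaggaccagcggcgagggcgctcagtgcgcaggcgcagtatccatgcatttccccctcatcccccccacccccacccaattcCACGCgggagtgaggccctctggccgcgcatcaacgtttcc
Ldhb: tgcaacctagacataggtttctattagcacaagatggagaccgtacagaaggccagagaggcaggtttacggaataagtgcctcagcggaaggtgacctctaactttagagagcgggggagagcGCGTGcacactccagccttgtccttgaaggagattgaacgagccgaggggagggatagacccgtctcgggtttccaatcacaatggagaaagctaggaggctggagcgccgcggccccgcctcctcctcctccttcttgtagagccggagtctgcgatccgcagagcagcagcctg
Hk3: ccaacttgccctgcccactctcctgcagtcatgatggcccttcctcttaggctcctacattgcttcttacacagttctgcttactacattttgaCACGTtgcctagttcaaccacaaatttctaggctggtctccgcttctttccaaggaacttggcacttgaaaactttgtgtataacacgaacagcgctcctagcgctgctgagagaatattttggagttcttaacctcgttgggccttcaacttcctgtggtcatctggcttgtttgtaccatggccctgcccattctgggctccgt
Slc16a1 held 5 matches, Slc2a1 and Eno1 held 2 each, and Pfkl, Ldhb and Hk3 held 1 each. A match stood in 29 of 31 of the genes with a window in the table (93.5%), against 46.7% of all 27025 genes there and 43.8% of all 32851 windows. The 44 windows of those 31 genes were also richer in CG dinucleotides, with a median of 20.5 per window against 7 over all windows, and both core motifs contain CG. Hk3, which fell, held a match as well as the 5 genes that rose.

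The transporters had the highest median of the steps, a log2 fold change of 1.20, and for all 3 of them every Cre library was above every flox library. Slc2a1 encodes GLUT1, the basal glucose importer (chr4:119108711-119137983 on GRCm38). It had 210, 195 and 201 CPM in Cre libraries, against 79.8, 98.2 and 146 CPM in flox libraries. The Cre values were tight and flox 3 was the closest flox library to them. Slc2a1 rose by a log2 fold change of 0.90 ± 0.22 SE (1.87-fold, edgeR adjusted p = 0.0413), and by 1.19 without flox 3. Slc16a1 encodes MCT1, which carries lactate and pyruvate across the membrane in either direction (chr3:104638668-104658462). It had 113, 90.4 and 70.0 CPM in Cre libraries and 34.5, 29.4 and 55.3 CPM in flox libraries, so the lowest Cre and the highest flox library lay close together. Slc16a1 rose by 1.20 ± 0.28 (edgeR adjusted p = 0.0387). Slc16a3 encodes MCT4, the main lactate exporter of glycolytic cells. It had 123, 83.7 and 41.9 CPM in Cre libraries and 29.3, 35.9 and 36.1 CPM in flox libraries, with a log2 fold change of 1.30 ± 0.36 that missed the threshold (edgeR adjusted p = 0.0576). Cre 3 lay far below the other Cre libraries and close to the flox libraries, and without Cre 3 Slc16a3 passed (1.64, adjusted p = 0.0253). That fit called 8.95% of all genes. Neither monocarboxylate transporter shares a 50-base stretch of its longest transcript with another gene, and Slc2a1 shares 1.74% of them.

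**Figure D2:**
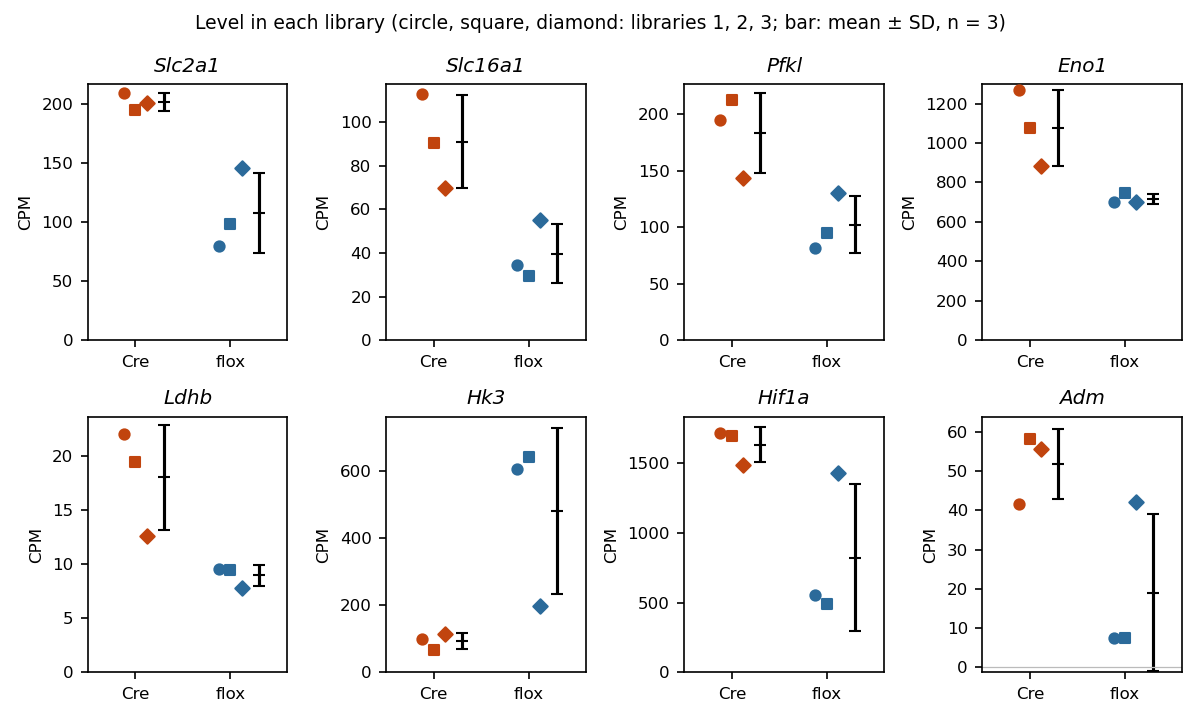
CPM of 8 genes in each library, Cre left and flox right, circles, squares and diamonds for libraries 1, 2 and 3 and a bar for mean ± SD (n = 3). The flox 3 diamond sits nearer the Cre libraries than flox 1 and flox 2 do for Slc2a1, Slc16a1, Pfkl, Hk3, Hif1a and Adm; for Adm the SD bar runs below 0 because flox 3 (42.2 CPM) lies far above flox 1 and 2.

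In the upper part of glycolysis 1 of 9 genes rose and 1 fell, around a median log2 fold change of 0.13. The hexokinases trap glucose as glucose 6-phosphate. Hk3, the isoform known from myeloid blood cells and macrophages (chr13:55005985-55021385), had 99.0, 66.4 and 114 CPM in Cre libraries, against 606, 644 and 198 CPM in flox libraries. No Cre library reached any flox library, and flox 3 was the lowest of the flox libraries, as it was for the macrophage markers. Hk3 fell by 2.38 on the log2 scale (SE 0.46, edgeR adjusted p = 0.0267), and by 2.75 without flox 3. Beside it, the mean log2 CPM of the 24 macrophage markers was 6.08, 5.80 and 6.13 in Cre libraries and 8.85, 9.25 and 7.56 in flox libraries; their part in the Hk3 result was not tested. Hk1, the housekeeping isoform, had a log2 fold change of 0.22 ± 0.11 (adjusted p = 0.200). Hk2, the inducible isoform and a classical HIF target, was at 151 ± 10.5 CPM in Cre libraries and 157 ± 33.6 CPM in flox libraries (SD, n = 3 each), a log2 fold change of -0.06 ± 0.17 whose sign turns positive with library totals (0.11).

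Phosphofructokinase commits the sugar to glycolysis. Pfkl, its liver isoform (chr10:77986947-78010083), had 195, 212 and 144 CPM in Cre libraries and 81.2, 94.8 and 130 CPM in flox libraries. Cre 3, the lowest Cre library, and flox 3, the highest flox library, lay close together. Pfkl rose by 0.84 ± 0.22 (edgeR adjusted p = 0.0491), just inside the threshold, and it missed it with RLE size factors in place of TMM factors. The muscle isoform Pfkm gave 0.49 ± 0.23 (adjusted p = 0.179) at 11.1 ± 2.06 CPM in Cre libraries and 7.92 ± 1.55 CPM in flox libraries, and the platelet isoform Pfkp 0.05 ± 0.22 (adjusted p = 0.895). Pfkfb3, whose product makes the activator fructose 2,6-bisphosphate, gave -0.34 ± 0.23 (adjusted p = 0.324). Gpi1, the isomerase between the hexokinase and phosphofructokinase steps, gave 0.13 ± 0.14 (adjusted p = 0.521). Aldoa, the aldolase, gave 0.23 ± 0.25 (adjusted p = 0.557). It was counted at only 4.84 ± 0.68 CPM in Cre libraries and 4.14 ± 0.75 CPM in flox libraries, far below the enzymes that act before and after it. Of the 50-base stretches of its longest transcript, 13.5% are shared with other annotated genes. How such reads were counted is not given, and whether the counts miss part of its RNA was not tested, so this low level is uncertain.

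**Figure D3:**
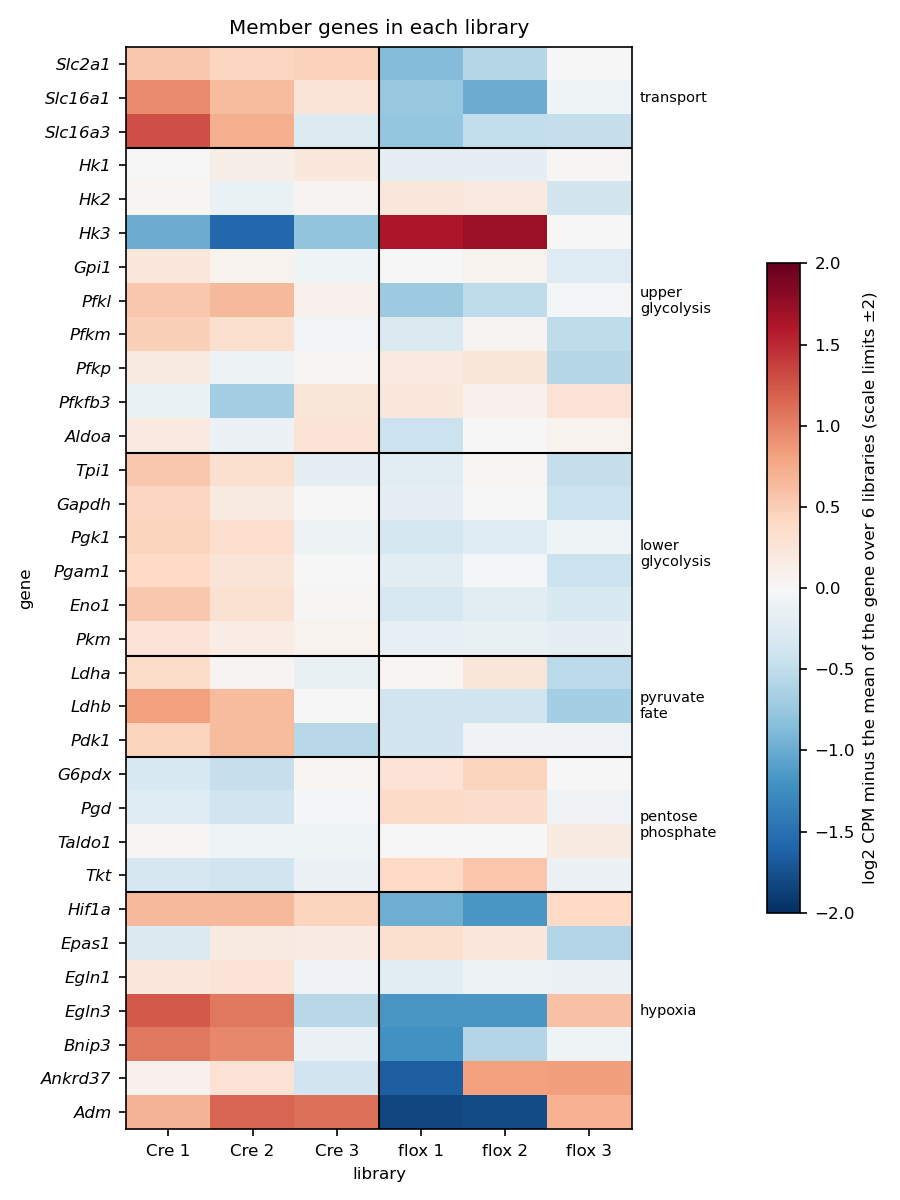
Log2 CPM of each of the 32 genes in each library, minus the gene's mean over the 6 libraries (red above, blue below, colour limits at ±2), Cre columns left of flox columns, rows by pathway step. The 6 rows of the lower steps are red in Cre 1 and Cre 2 and near the mean in Cre 3. Hk3 is blue in all 3 Cre columns, and in Hif1a and Adm flox 3 resembles the Cre columns.

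All 6 genes of the lower steps of glycolysis had a positive log2 fold change, from 0.33 to 0.59, and 1 of them was called. Their mean log2 CPM was 9.31, 9.13 and 8.84 in Cre libraries, against 8.63, 8.76 and 8.55 in flox libraries. Beside them, the mean log2 CPM of the 17 proliferation markers was 5.55, 5.49 and 4.44 in Cre libraries and 3.93, 3.42 and 3.33 in flox libraries, and that of the 11 mesothelial markers, given above, was likewise highest in Cre 1 and Cre 2. The part of both lists in the result was not tested. Eno1, the enolase that makes phosphoenolpyruvate (chr4:150236721-150248879), had 1267, 1077 and 885 CPM in Cre libraries, against 699, 744 and 703 CPM in flox libraries. Every Cre library was above the narrow band of the flox libraries, and Cre 1 was the highest. Eno1 rose by 0.59 ± 0.16 (1.50-fold, edgeR adjusted p = 0.0496), again at the edge of the threshold. Pgam1, the phosphoglycerate mutase, had 319, 288 and 243 CPM in Cre libraries and 208, 235 and 179 CPM in flox libraries. Pkm, the pyruvate kinase of non-liver tissues, had 2965, 2724 and 2600 CPM in Cre libraries and 2205, 2224 and 2171 CPM in flox libraries. Neither overlapped between groups, yet neither passed (Pgam1 0.45 ± 0.15, adjusted p = 0.0893; Pkm 0.33 ± 0.12, adjusted p = 0.115). Pgk1, the first ATP-making step, gave 0.47 ± 0.17 (adjusted p = 0.106). Tpi1, the triose phosphate isomerase, gave 0.46 ± 0.22 (adjusted p = 0.192) and Gapdh, the dehydrogenase before Pgk1, 0.41 ± 0.16 (adjusted p = 0.125).

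Many of these genes have processed copies elsewhere in the genome, and the labels do not say how reads that match several copies were counted. Of the 50-base stretches of the longest transcript, 82.5% are shared with another annotated gene for Gapdh, 72.2% for Eno1, 68.0% for Pgk1, 62.4% for Bnip3, 41.5% for Pgam1, 34.4% for Pkm and 27.0% for Ldhb. Their levels are therefore uncertain, and Gapdh, usually among the most abundant transcripts, stood at 157 ± 23.1 CPM in Cre libraries and 119 ± 17.7 CPM in flox libraries. Eno1b, a copy of Eno1, was counted apart at 13.6 CPM in Cre libraries and 8.74 CPM in flox libraries and rose by 0.64 ± 0.17 (edgeR adjusted p = 0.0490). By the deposited FPKM, the most abundant of the 32 genes in Cre libraries were Eno1 (568 ± 110 FPKM), Pkm (380 ± 31.5 FPKM), Hif1a (345 ± 31.9 FPKM) and Pgk1 (311 ± 64.2 FPKM). In flox libraries they were Eno1 (338 ± 15 FPKM), Taldo1 (287 ± 38.9 FPKM), Pkm (271 ± 12.1 FPKM) and Pgk1 (202 ± 29.8 FPKM). In Cre libraries Eno1 stood above Pkm by more than their SDs, and Pkm, Hif1a and Pgk1 lay within their SDs of each other. In flox libraries Pgk1 stood below Pkm by more than their SDs, and the 3 above it did not separate from their neighbours. FPKM, fragments scaled by gene length and library total, was deposited on library totals, without TMM factors. The order of genes by FPKM rests on the lengths used for it, which were not checked. In CPM, which uses no length, Pkm stood above Eno1, at 2763 ± 186 against 1076 ± 191 CPM in Cre libraries. In flox libraries it was 2200 ± 27.2 against 715 ± 25.1 CPM.

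Of the 3 genes at the pyruvate branch, Ldhb rose. It encodes the heart subunit of lactate dehydrogenase (chr6:142490249-142507957), and it had 22.0, 19.4 and 12.6 CPM in Cre libraries against 9.56, 9.49 and 7.84 CPM in flox libraries. The groups did not overlap and the log2 fold change was 1.01 ± 0.24 (2.01-fold, edgeR adjusted p = 0.0389). Ldha, the muscle subunit and a classical HIF target, stood at 812 ± 146 CPM in Cre libraries and 729 ± 189 CPM in flox libraries (SD, n = 3 each). Its log2 fold change was 0.16 ± 0.23 (adjusted p = 0.666), and -0.033 without flox 3. Pdk1, the kinase that shuts pyruvate dehydrogenase, gave 0.43 ± 0.30 (adjusted p = 0.352).

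Within each library the isoforms of a family were set against each other by FPKM, a ratio that no library scaling can move. The size of each ratio and share rests on the gene lengths used for FPKM, which were not checked. A difference in log2 ratio between groups does not, because the length of a gene is the same in every library. Hk3 made up 37.2%, 28.9% and 38.7% of the summed FPKM of the 3 hexokinases in Cre libraries, against 78.1%, 79.2% and 57.5% in flox libraries. By this share it was the leading hexokinase in every flox library, and also in Cre 1 and Cre 3, where Hk2 came next at 33.9% and 31.1%. In Cre 2 Hk1 led at 36.2%. The Hk3 to Hk1 ratio was 1.29, 0.797 and 1.28 in Cre libraries and 8.96, 9.49 and 2.54 in flox libraries, a difference of -2.45 on the log2 scale. Ldha exceeded Ldhb 10.8, 9.88 and 13.2 times in Cre libraries and 19.8, 22.9 and 16.2 times in flox libraries, a log2 difference of -0.80, and the share of Ldhb was 7.05% to 9.19% in Cre and 4.18% to 5.81% in flox libraries. For the Hk3 to Hk1 and Ldha to Ldhb ratios, 2 of 8, the groups did not overlap. Each reached p = 0.10 in the exact two-sided permutation test, the smallest value that 3 against 3 allows (0.40 after Benjamini-Hochberg adjustment over 8 ratios). The Pfkp to Pfkl ratio overlapped between groups, at 0.286, 0.216 and 0.352 in Cre libraries and 0.693, 0.609 and 0.253 in flox libraries (exact p = 0.30). The log2 differences of the other ratios were -0.26 for Hk2 to Hk1 (exact p = 0.40), -0.36 for Pfkm to Pfkl (0.40), -0.05 for Slc16a3 to Slc16a1 (0.80), -1.12 for Epas1 to Hif1a (0.40) and 0.87 for Egln3 to Egln1 (0.20).

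**Figure D4:**
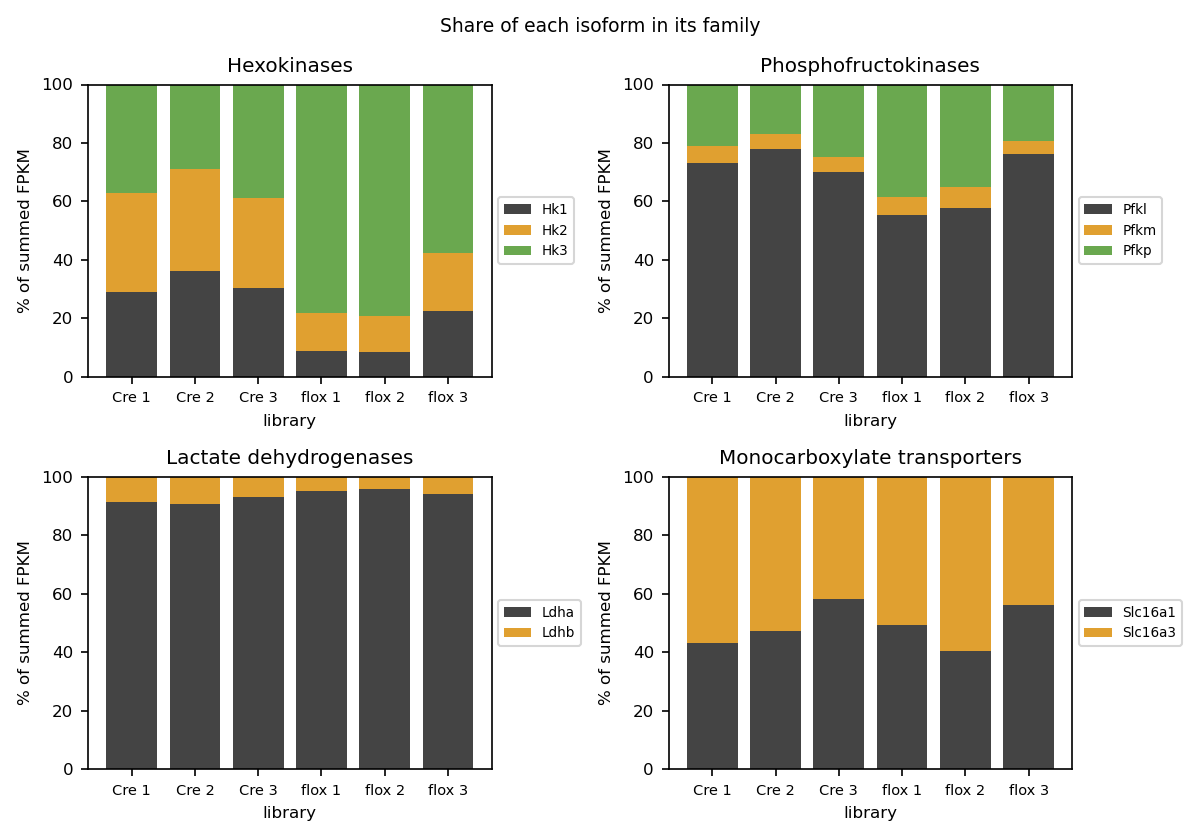
Share of each isoform in the summed FPKM of its family, in percent, stacked by library, for hexokinases, phosphofructokinases, lactate dehydrogenases and monocarboxylate transporters. The Hk3 block is at most 38.7% in Cre libraries and at least 57.5% in flox libraries, and flox 3 matches the Cre libraries for the phosphofructokinases, with Pfkl at 76.1%.

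None of the 4 pentose phosphate genes passed the threshold, and all 4 had a negative log2 fold change, with a median of -0.47. Their mean log2 CPM was 7.64, 7.53 and 7.81 in Cre libraries and 8.13, 8.20 and 7.86 in flox libraries, so flox 3 lay close to Cre 3. G6pdx, the glucose 6-phosphate dehydrogenase that makes the first NADPH, had 120, 108 and 153 CPM in Cre libraries, against 183, 203 and 148 CPM in flox libraries (-0.49 ± 0.18, adjusted p = 0.104). Pgd, which makes the next NADPH, had 196, 180 and 233 CPM in Cre libraries and 307, 302 and 226 CPM in flox libraries (-0.45 ± 0.16, adjusted p = 0.105). Tkt, the transketolase of the carbon-shuffling branch, had 177, 171 and 207 CPM in Cre libraries and 296, 329 and 206 CPM in flox libraries (-0.58 ± 0.19, adjusted p = 0.0826). For all 3 of these the groups overlapped only at Cre 3 and flox 3, and leaving out either library separates them. Without flox 3 edgeR called each of them, with log2 fold changes of -0.75 for Tkt (adjusted p = 0.00590), -0.58 for Pgd (0.0175) and -0.60 for G6pdx (0.0321). That fit called 34.8% of all genes. Without Cre 3 edgeR called none of the 3 (background 8.95%), and DESeq2 called all 3 (background 20.2%). Taldo1, the transaldolase, stood at 358 ± 15.4 CPM in Cre libraries and 386 ± 29.6 CPM in flox libraries, a log2 fold change of -0.11 ± 0.11 (adjusted p = 0.509) that becomes 0.046 with library totals. The macrophage markers were also lower in Cre libraries for 21 of 24, with flox 3 the lowest flox library, and their part was not tested.

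None of the 7 hypoxia genes passed either, although their median log2 fold change was 0.99. Hif1a, the oxygen-labile factor (chr12:73901375-73947530), had 1711, 1695 and 1483 CPM in Cre libraries, against 551, 487 and 1427 CPM in flox libraries. The groups nearly met at Cre 3 and flox 3, while flox 1 and flox 2 lay far below. The log2 fold change was 0.99 ± 0.41 (edgeR adjusted p = 0.143), and 1.65 without flox 3 (adjusted p = 7.75e-04). The fit without flox 3 called 34.8% of all genes. With any other library left out, the edgeR adjusted p of Hif1a was 0.211 to 0.351. Adm, the vasodilator peptide adrenomedullin (chr7:110627661-110629820), split in the same way, with 41.5, 58.3 and 55.7 CPM in Cre libraries and 7.35, 7.50 and 42.2 CPM in flox libraries. Its log2 fold change was 1.44 ± 0.70 (adjusted p = 0.191), and 2.81 without flox 3 (adjusted p = 6.34e-04). With any other library left out, the edgeR adjusted p of Adm was 0.295 to 0.400. Egln3, the strongly inducible prolyl hydroxylase, had 39.7, 35.5 and 11.6 CPM in Cre libraries and 7.62, 7.59 and 25.5 CPM in flox libraries, so Cre 3 and flox 3 each stood apart from the rest of their group (1.09 ± 0.63, adjusted p = 0.267). Without flox 3 it was called (1.93, adjusted p = 0.0352), and with any other library left out its edgeR adjusted p was 0.155 to 0.531.

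Bnip3, a mitophagy receptor, had 65.9, 62.0 and 29.5 CPM in Cre libraries and 13.7, 21.2 and 29.9 CPM in flox libraries. Cre 3 and flox 3 were level, and the log2 fold change was 1.28 ± 0.39 (adjusted p = 0.0685). Part of its exon sequence, 22.3%, overlaps the annotated gene Gm45507. Egln1, the main oxygen sensor, had 69.5, 71.8 and 56.9 CPM in Cre libraries and 51.2, 55.2 and 55.0 CPM in flox libraries and the groups did not overlap, by a narrow margin (0.30 ± 0.12, adjusted p = 0.133). Epas1, which encodes HIF-2alpha, stood at 84.8 ± 14.5 CPM in Cre libraries and 84.8 ± 25.9 CPM in flox libraries, a log2 fold change of 0.00062 ± 0.26 (adjusted p = 0.999) with no stable sign. Ankrd37, a small HIF target, was read at 0.84 ± 0.19 CPM in Cre libraries and 1.07 ± 0.70 CPM in flox libraries, where 3 counts correspond to 0.0732 to 0.0805 CPM. Its log2 fold change of -0.34 ± 0.67 (adjusted p = 0.751) says little at that depth.

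**Figure D5:**
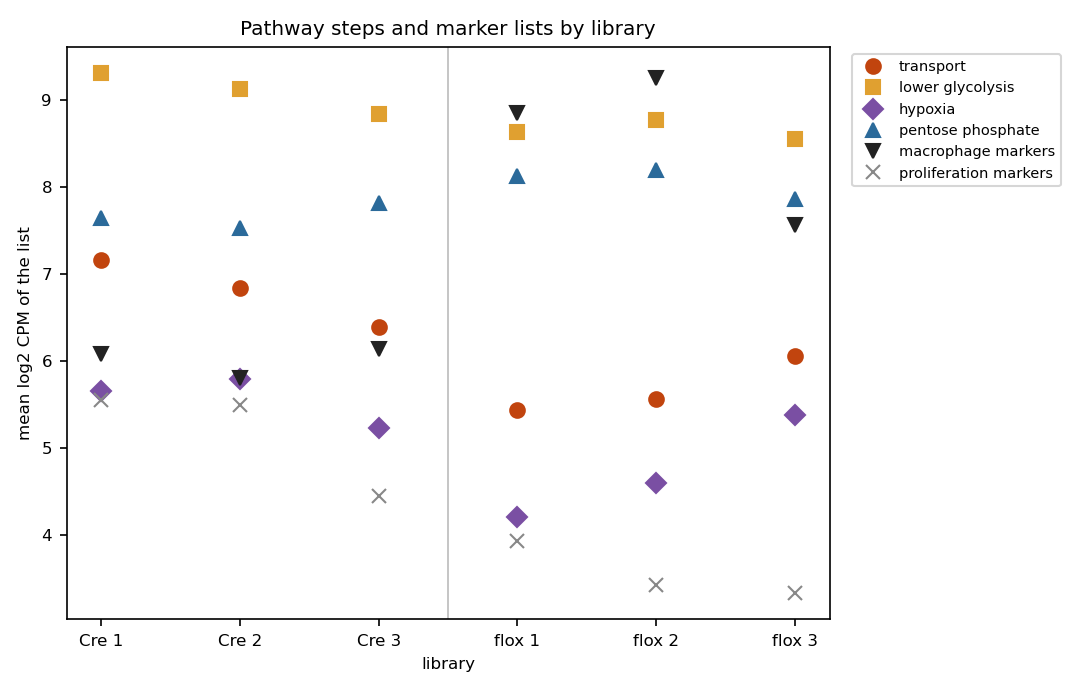
Mean log2 CPM of 4 pathway steps and of the macrophage and proliferation markers in each library, Cre left of flox. The transporters fall between 6.39 and 7.16 in Cre libraries and 5.44 and 6.05 in flox libraries. Flox 3 is the flox library nearest the Cre libraries for transporters (6.05), hypoxia genes (5.38), pentose phosphate genes (7.86) and macrophage markers (7.56). It is not the nearest for lower glycolysis or proliferation markers. For hypoxia genes flox 3 lies above Cre 3 (5.23), so the groups overlap.

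Other genes of these pathways, taken from 4 further lists, were read from the same fit. Of 117 genes listed, 115 were in the table and 108 were tested, and 15 rose and 7 fell in Cre libraries (20.4%, against the background of 15.3%). Over all genes tested 6.35% were called higher and 8.94% lower, the background for each of the 4 lists. In the hypoxia list 10 of 43 rose and 2 fell, with a median log2 fold change of 0.35. Vegfa, the angiogenic growth factor and best known HIF target, had 128, 98.3 and 126 CPM in Cre libraries and 52.3, 62.7 and 65.1 CPM in flox libraries, and rose by 0.97 ± 0.15 (edgeR adjusted p = 0.0237). Here flox 3 stayed with the other flox libraries, unlike Hif1a and Adm. Ddit4, an inhibitor of mTORC1 (0.83 ± 0.13), the cytokine Mif (0.74 ± 0.13), the transcriptional regulator Cited2 (0.65 ± 0.12), Arnt2, a dimerisation partner of HIF factors (2.40 ± 0.46), and the collagen lysyl hydroxylase Plod2 (1.42 ± 0.28) also rose, at adjusted p of 0.0241 to 0.0275. P4ha2, Ak4 and Fam162a were also among the genes that rose. Plod1, another lysyl hydroxylase, fell by 1.18 (SE 0.25, adjusted p = 0.0320) and Ppfia4, a liprin, by 4.28 (SE 0.72, adjusted p = 0.0241).

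In the glycolysis and pyruvate list 2 of 33 rose, the galactokinase Galk1 (0.65 ± 0.10, edgeR adjusted p = 0.0238) and Eno1b, and 2 fell. These were Pfkfb4, a relative of Pfkfb3, at 7.97 CPM in Cre libraries and 29.1 CPM in flox libraries (-1.87 ± 0.48, adjusted p = 0.0460), and the monocarboxylate transporter Slc16a7 at 2.19 CPM in Cre and 16.7 CPM in flox libraries (-2.93 ± 0.76, adjusted p = 0.0478). For both, flox 3 lay close to the Cre libraries. Pfkfb4 had 31.3, 45.3 and 10.8 CPM in flox 1, 2 and 3, and Slc16a7 had 20.5, 26.1 and 3.43 CPM. The list's median was -0.09. In the glycogen and gluconeogenesis list 2 of 21 rose and 1 fell. Pck2, the mitochondrial phosphoenolpyruvate carboxykinase, had 86.1, 79.6 and 82.5 CPM in Cre libraries, against 34.4, 29.6 and 37.5 CPM in flox libraries (1.29 ± 0.12, adjusted p = 0.0226), with each group in a narrow band. The glycogen synthase Gys1 rose by 0.83 ± 0.12 (adjusted p = 0.0237) and Pgm2l1, a glucose 1,6-bisphosphate synthase, fell by 0.96 (SE 0.20, adjusted p = 0.0315). In the pentose and ribose phosphate list 1 of 12 rose. This was H6pd, which carries out the oxidative steps inside the endoplasmic reticulum, at 370, 373 and 505 CPM in Cre libraries and 252, 207 and 209 CPM in flox libraries (0.90 ± 0.17, adjusted p = 0.0251). Its direction is opposite to the negative values of the cytosolic G6pdx and Pgd. Ribokinase Rbks (-1.50 ± 0.28, adjusted p = 0.0255) and Prpsap2, a regulator of ribose phosphate activation (-0.88 ± 0.23, adjusted p = 0.0469), fell.

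The number of the 32 genes called moved with the libraries and the tool. Without flox 3, 13 were called, where the background was 34.8% of all genes; these were the 6 above with Hif1a, Egln3, Bnip3, Adm, G6pdx, Pgd and Tkt. Without Cre 3, 4 were called (background 8.95%), namely Slc16a3, Eno1, Ldhb and Bnip3. Without Cre 1, Cre 2, flox 1 or flox 2, edgeR called 0 of them and 0% of all genes, while 8, 9, 9 and 12 of the 32 had an unadjusted p below 0.05. DESeq2 called 10 on all libraries (background 23.1%), adding Slc16a3, Pkm, Bnip3 and Tkt to the 6. With DESeq2 and each library left out, the calls were 2 without Cre 1 (background 13.1%), 5 without Cre 2 (15.2%), 16 without Cre 3 (20.2%), 4 without flox 1 (13.9%), 7 without flox 2 (14.4%) and 16 without flox 3 (37.1%). Slc16a1 and Hk3 were called in all 6 of those fits, Slc2a1 and Ldhb in 5, Eno1 in 3 and Pfkl in 2. On all libraries the calls were 5 with RLE size factors (background 15.2%), 9 with library totals (16.8%), 7 without a count filter (9.87%), 3 with limma-voom (9.49%), 9 with limma-trend on log2(FPKM + 1) (14.5%) and 9 on log2(FPKM + 0.1) (16.1%), and 0 with the replicate number as a block (0% of all genes), where 12 of the 32 had an unadjusted p below 0.05.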

How the data were processed

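Gene-level read counts and FPKM values for 6 libraries were taken as the authors deposited them, each library a column of a raw count table and of an FPKM table. An RNeasy kit gave the RNA and 1.3 µg of total RNA went into SMARTER mRNA-Seq libraries, per the labels. The builds GRCm38, mm10 and hg38 stand in the submitters' processing notes; no source used here gives the aligner, the counter, the strand setting or the rule for multiply matching reads. In 11560 genes checked, the deposited FPKM were count over total times a factor fixed for each gene (0 departed by more than 1e-06). They thus carry library-total scaling, and the gene lengths behind that factor were not checked.

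Counts were fitted with edgeR 4.0.16 in R 4.3.3 (TMM factors, filterByExpr with a minimum count of 10 and total of 15, glmQLFit and glmQLFTest, two-sided). Of 22966 genes, 8171 were removed by the filter, among them the 1349 that were 0 throughout. The other 14795 were tested, with Benjamini-Hochberg adjustment over all of them. The labels do not say whether the library numbers mark a shared litter or day, so no block was used. Correlations of deviations between same-numbered libraries were -0.03, -0.10 and -0.06, and those between differently numbered libraries ran from -0.03 to 0.10. With so few libraries these values do not decide whether the numbers mark a pairing. Isoform ratios used log2 FPKM ratios and exact permutation tests. Alternatives used DESeq2 1.42.0, limma 3.58.1 (voom, and trend on log2(FPKM + 1) or log2(FPKM + 0.1)), other scalings and libraries left out; DESeq2 with a library left out was added after the results were seen. All 32 genes are named with their fold changes; from the other lists, called genes of lowest p were named, up to 6 a direction. Gene positions and overlaps came from GENCODE M21. The members and lists were chosen with earlier results of these data known.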

Additional observations from a re-analysis of the deposited data

How the results depend on the processing

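The edgeR calls rest on few libraries, and the cause was not tested. The count over all genes, 2263 with every library, was 0 to 5329 when a library was left out in turn, 4021 with DESeq2, 1404 with limma-voom and 0 with a replicate block; up to 6217 were called by DESeq2 when flox 3 was left out. At an unadjusted p below 0.05 edgeR had 4296 genes with the block, and 3593, 3978, 3720 and 3562 without Cre 1, Cre 2, flox 1 and flox 2. Leaving out a library or adding the block lowers the residual degrees of freedom, and the part of this was not tested. With a library left out, the calls were 0 without Cre 1, Cre 2, flox 1 or flox 2, 1369 without Cre 3 and 5329 without flox 3. Deviations of same-numbered libraries were not positively correlated. With so few libraries this does not decide whether the numbers mark a pairing.

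Of the 32 genes, those higher in Cre numbered 5 in the reported fit, 8 with library totals, DESeq2 and both FPKM fits, 2 with limma-voom, 0 with the replicate block, 0 to 9 with a library left out and 1 to 12 with DESeq2 and a library left out. Those lower numbered 1 in the reported fit, 2 with DESeq2, 0 with the block, 0 to 4 with a library left out and 1 to 4 with DESeq2 and a library left out. The other pathway genes called numbered 22 in the reported fit, 38 with DESeq2, 0 with the block, 0 to 45 with a library left out, and up to 49 with DESeq2 and a library left out.

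Direction turned for 1 ratio and for 6 of the 32 genes, none of them called. The Slc16a3 to Slc16a1 ratio became 0.20 without Cre 3 and 0.18 without flox 2, in a range of -0.27 to 0.20 with a library left out. Hk2 was 0.11 with library totals, 0.12 in both FPKM fits, -0.22 to 0.055 with a library left out, and 0.034 and 0.024 with DESeq2 without flox 1 and without flox 2. Taldo1 was 0.046 with library totals and 0.053 in both FPKM fits, and Ankrd37 0.10 with a pseudocount of 0.1. Epas1 was -0.0025 with RLE factors, -0.0013 with DESeq2 and -0.23 to 0.18 with a library left out; DESeq2 gave -0.074 without Cre 2, -0.081 without Cre 3 and -0.23 without flox 3. Pfkp ran from -0.17 to 0.20 and Ldha from -0.033 to 0.35 with a library left out. With DESeq2, Pfkp was -0.024 without Cre 1 and -0.17 without flox 3, and Ldha -0.035 without flox 3. In the other results for single genes, 817 comparisons of a gene with an alternative kept direction and side of the threshold, 192 lost the threshold and 46 gained it.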
